A study of Rattus norvegicus with 7 samples.

Results

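The genes described here are those of the major histocompatibility complex (MHC) of the rat, called RT1, with the genes that assemble MHC molecules and those of interferon and STAT signalling, in rat testis after cadmium. Membership went by gene symbol alone. A probe set of the rat expression array was taken where its 1 annotated symbol began with RT1-, with Irf, Stat or Mx followed by a digit, or with Ifit, Ifitm, Oas or Gbp, or was B2m, Cd74, Tap1, Tap2 or Tapbp. This gave 79 of 31099 probe sets, for 54 of the 14217 genes named by a probe set with 1 symbol. By role they were 12 probe sets for class II chains and their invariant chain, 22 for class I chains and their light chain, 4 for peptide loading, 10 for interferon regulatory factors (IRFs), 8 for STAT factors and 17 for interferon-induced effectors. The remaining 6 read Irf2bp1, Irf2bp2 and Irf2bpl, which the symbol rule took in although they encode proteins that bind IRF2 and are no IRFs themselves. RT1 genes made up 31 probe sets for 18 genes, and the other 48 probe sets stood for 36 genes.

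The animals were adult male Sprague-Dawley rats, an outbred stock. Testes were taken 8 h after 1 intraperitoneal injection of cadmium chloride at 3 mg/kg body weight (n = 2), 20 h after the same injection (n = 2), or from untreated rats (n = 3). The labels describe no vehicle injection in the untreated rats, so an effect of the injection itself cannot be told apart from one of cadmium. Total RNA of each testis sample was hybridized to 1 array, and the samples are labelled biological replicates without a statement of which animals or pools they came from.

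Class I molecules, each a heavy chain with the light chain beta-2-microglobulin, show peptides from inside a cell to cytotoxic T cells, and class II molecules show peptides from outside it to helper T cells. Interferons and cytokines of the interleukin-6 family act through receptors whose Janus kinases phosphorylate STAT factors, and these, with IRFs, switch on class I, peptide loading and antiviral effector genes. In the testis, class II is carried by macrophages of the interstitium, and germ cells past meiosis carry little class I. RT1 genes differ between rat haplotypes in sequence and in number, and rats of an outbred stock can carry different haplotypes. A probe set reads only the alleles that its probes match, and no genotypes were used here, so a different allele and a different amount of RNA cannot be told apart from an RT1 signal.

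All values below are probe set signals on the linear scale of the deposited table, where the trimmed mean of every array is 250.1. They are given in replicate order within a group. Median signals ranged from 52.9 to 63.2 on the 4 cadmium arrays and from 57.1 to 72.0 on the 3 untreated arrays. Hybridization took 3 days. Day 1 held 20 h replicate 1 with untreated replicate 1, and day 2 held untreated replicate 2 alone. Day 3 held the other 4 arrays, both 8 h arrays among them. Untreated replicate 2 was also stained under another protocol, at 25 °C where the others had 35 °C, and its experiment file names mouse as the sample type. Its RT1 signals differed from those of untreated replicate 1 by a median of 0.17 (log2). The 6 spermatid genes used to check the tissue gave summed signals of 76248.2 to 110741.6 on cadmium arrays and 70984.2 to 111231.4 on untreated arrays. In whole testis, fewer cells of a type and less RNA per cell cannot be told apart.

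No member passed the test at either time. Differences were tested with limma on log2(signal + 15), with Benjamini-Hochberg adjustment over the 20857 probe sets that passed a filter on low signal, and a call was an adjusted p under 0.05. Of the 79 members 66 passed that filter (28 RT1 and 38 outside RT1). The other 13 had signals of 1.1 to 79.7. The number called was 0 of 66 members at 8 h against untreated, at 20 h against untreated, at 20 h against 8 h and in the F test over the 3 groups. Over all probe sets it was also 0, that is 0% in each comparison, and 3.02% had an unadjusted p under 0.05 in the F test. The lowest adjusted p of any member in limma was 0.836 at 8 h, 0.999 at 20 h and 1.000 for 20 h against 8 h.

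At 8 h the tested members leaned slightly lower than in untreated testis, as did the array as a whole. The median log2 fold change was -0.15 over the 66 tested members and -0.08 over all tested probe sets, and after quantile normalization both were 0.01. At an unadjusted p under 0.05 in limma 4 members stood out, all lower, 6.06% of those tested, where 5.22% of all probe sets did so in either direction and 4.06% downwards. They were RT1-Ba, RT1-S3, RT1-A3 and Oasl. Both 8 h arrays lay above all untreated arrays for 6 members, with a background of 7.59%, and below all of them for 11, with a background of 15.4%. The 6 were 1 probe set of Stat3, that of Stat4, both of B2m, RT1-DMb and Ifit3. The shares, 9.09% and 16.7% of 66, lay close to the background.

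At 20 h the median was again close to that of the array as a whole. The median log2 fold change against untreated testis was -0.07 over the tested members and -0.05 over all probe sets. At an unadjusted p under 0.05 in limma 1 member was higher, Irf1, and 3 were lower, Irf8, Cd74 and a probe set of RT1-S3. Together these were 6.06% of the 66 tested, where 3.11% of all probe sets did so in either direction. Upwards the shares were 1.52% and 0.767%, and downwards 4.55% and 2.34%. Both 20 h arrays lay above all untreated arrays for 4 members (background 4.65%), Irf1, Ifit2, RT1-CE12 and a probe set of RT1-Bb, and below all of them for 8 (background 10.7%). For 20 h against 8 h, 2 members had an unadjusted p under 0.05 in limma, Irf1 and RT1-T24-4, both higher at 20 h. These were 3.03% of the tested members, with a background of 1.92% in either direction and 1.22% upwards. The 20 h arrays lay above both 8 h arrays for 11 members (background 15.2%) and below both for 12 (background 13.2%).

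**Figure D1:**
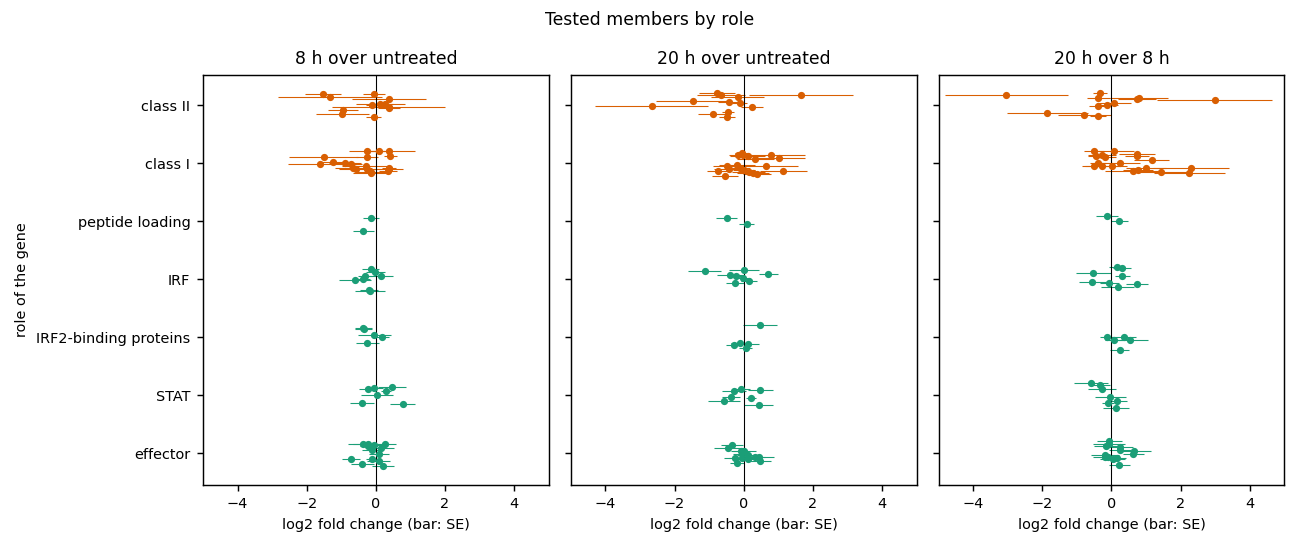
Log2 fold change of each tested member probe set, by role, for 8 h over untreated, 20 h over untreated and 20 h over 8 h. Points are limma estimates, bars 1 standard error, and orange marks class I and class II; the points beyond 1.13 on either side are RT1 genes, Irf8 at 20 h lies at -1.13, and no point passed the test.

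What set the RT1 genes apart from the other members was their spread between arrays, also within a group. The range of log2(signal + 15) over the 7 arrays had a median of 1.82 over the 28 tested RT1 probe sets, 0.83 over the 38 other members and 0.76 over all probe sets. A range of 2 or more, a 4-fold difference between the lowest and the highest array on that scale, was found for 13 RT1 probe sets (46.4%) of 9 genes, and for 3.76% of all probe sets. Outside RT1 1 of 38 members reached it, Irf2bp2. The RT1 probe set just inside this limit was one of RT1-S3, at 2.06, and the one just outside was one of RT1-CE5, at 1.95. Of the 13, 7 read class I and 6 read class II genes, and 5 carried a suffix that marks probes shared with other transcripts. Within the 8 h pair alone, 8 of 28 RT1 probe sets had such a range (background 0.197%), within the 3 untreated arrays 5 (background 1.09%), and within the 20 h pair 0 (background 0.604%). These counts are descriptions of 7 arrays, with no test, and probe sets of 1 gene or of neighbouring RT1 genes are not independent.

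**Figure D2:**
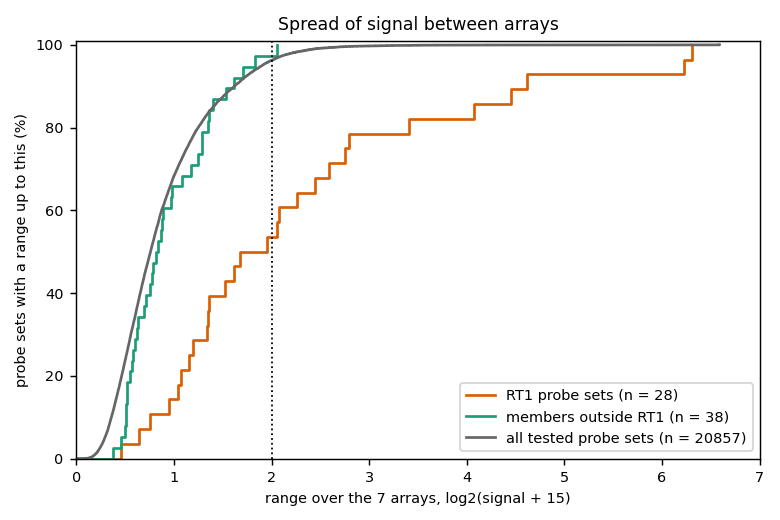
Share of probe sets (%, vertical) whose range over the 7 arrays, in log2(signal + 15), is at most the value on the horizontal axis, for RT1 probe sets, members outside RT1 and all tested probe sets. The dotted line marks a range of 2; the RT1 curve runs to the right of both others, and the curve of the other members runs close to that of all probe sets.

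Class II genes showed the widest swings. RT1-Bb, the beta chain of the RT1-B molecule, is read by 2 probe sets. Probe set 1371033_at gave signals of 1807.0 and 38.2 at 8 h, 37.0 and 12.7 at 20 h, and 761.1, 716.5 and 9.4 in untreated testis. Probe set 1371065_at gave 3.1 and 1412.5 at 8 h, 1210.1 and 1323.6 at 20 h, and 881.3, 707.4 and 86.9 in untreated testis. The first was high on 8 h replicate 1 and untreated replicates 1 and 2 and near the bottom of the scale on the other 4 arrays. The other was low on 8 h replicate 1 and untreated replicate 3 and high elsewhere, so that 8 h replicate 1 was the highest array of the 7 by one probe set of the gene and the lowest by the other. At 20 h against untreated they were -2.66 ± 1.63 and 1.66 ± 1.51 (log2 ± SE), and at 20 h against 8 h -3.04 ± 1.78 and 2.99 ± 1.66, of opposite sign for the same gene. At 8 h against untreated they were 0.37 ± 1.63 and -1.33 ± 1.51.

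RT1-Db1, the beta chain of the RT1-D molecule, followed the order of the first RT1-Bb probe set. Probe set 1370382_at gave 494.1 and 18.8 at 8 h, 23.6 and 19.3 at 20 h, and 182.9, 160.0 and 15.2 in untreated testis. Probe set 1370383_s_at gave 613.9 and 151.0 at 8 h, 210.5 and 141.8 at 20 h, and 510.1, 454.0 and 89.4 in untreated testis. In both, 8 h replicate 1 was the highest array, untreated replicates 1 and 2 came next, and the other 4 arrays lay below these 3. The log2 fold change at 20 h was -1.48 ± 1.07 by the first and -0.65 ± 0.70 by the other against untreated testis, and -1.85 ± 1.17 and -0.78 ± 0.77 against 8 h. Without 8 h replicate 1, the differences between 20 h and 8 h were 0.11 and 0.18.

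**Figure D3:**
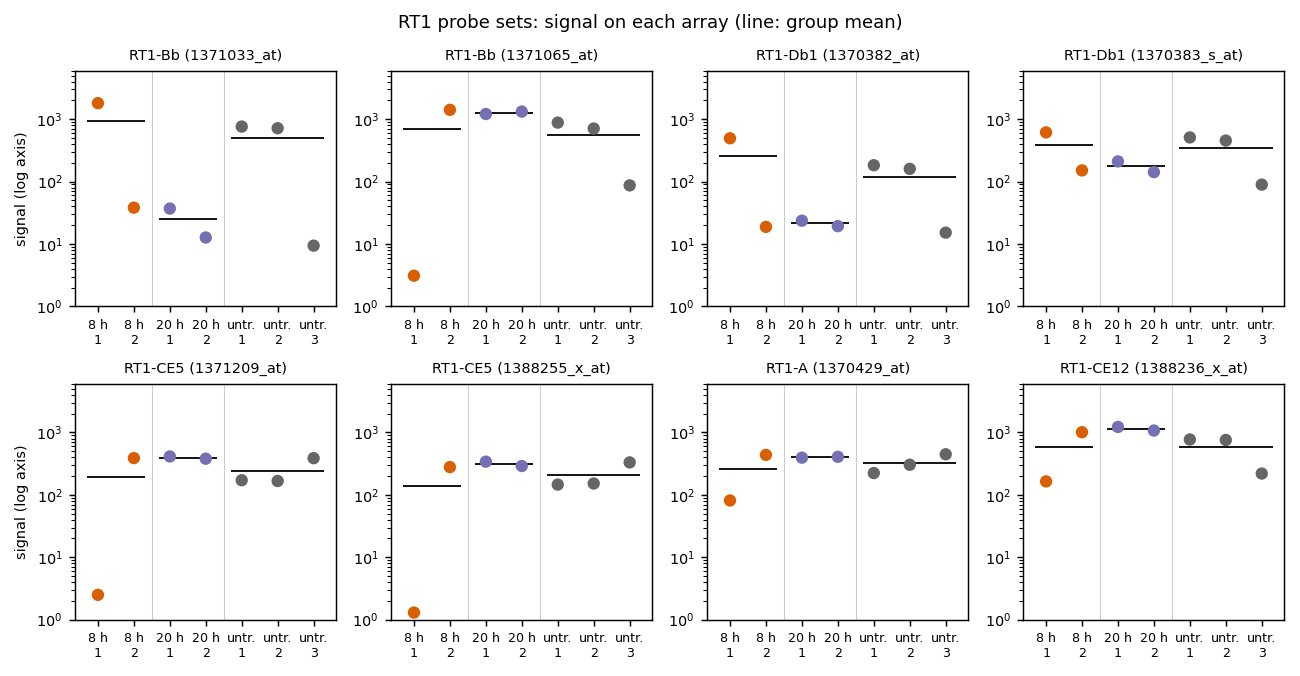
Signal (log axis) of 8 RT1 probe sets on each of the 7 arrays, with the arithmetic group mean as a line. Within the 8 h group and within the untreated group single arrays sit far from the others, at 1807.0 against 38.2 for RT1-Bb (1371033_at) at 8 h, for example. The 20 h arrays sit closer to each other than the 8 h arrays do, though at 37.0 and 12.7 for that probe set.

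The promoters of both genes are shown because they carry the Y box, a motif of class II promoters bound by the factor NF-Y. They run from 250 bases before to 50 bases after the transcription start and come from RefSeq on GRCr8, the genome of a BN rat, so they need not be the alleles of the animals studied. Capitals mark every match to ATTGG on either strand, which reads CCAAT on the other. RT1-Bb lies at chr20:4604069-4604368 and RT1-Db1 at chr20:4560113-4560412, both on the minus strand.
RT1-Bb: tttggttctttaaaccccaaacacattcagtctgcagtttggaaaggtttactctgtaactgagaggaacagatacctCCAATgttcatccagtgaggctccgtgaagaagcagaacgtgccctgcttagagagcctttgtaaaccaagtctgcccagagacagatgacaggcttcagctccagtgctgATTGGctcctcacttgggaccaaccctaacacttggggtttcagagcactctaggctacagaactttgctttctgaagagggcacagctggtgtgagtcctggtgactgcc
RT1-Db1: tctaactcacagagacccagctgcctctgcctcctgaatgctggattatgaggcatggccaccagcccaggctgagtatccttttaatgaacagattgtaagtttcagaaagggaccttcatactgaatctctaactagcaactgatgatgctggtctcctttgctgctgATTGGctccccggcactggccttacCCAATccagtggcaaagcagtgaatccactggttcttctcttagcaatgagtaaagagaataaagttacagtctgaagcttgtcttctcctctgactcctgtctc
ATTGG begins 61 bases before the start in RT1-Bb and 80 bases before it in RT1-Db1. All 6 class II promoters with a sequence held the motif, and so did 10 of 12 class I promoters (83.3%), so it was not particular to class II. It was found in 53.1% of the 49 member promoters and in 37.5% of 33469 rat promoters of this length. A match is a description of letters and not of binding. A promoter was found for 47 of the 54 genes. Of the 53 member genes whose chromosome the RefSeq table gives, 20 lie on chromosome 20, namely 17 RT1 genes with Tap1, Tap2 and Tapbp.

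RT1-Ba, the alpha chain of RT1-B, is read by 4 probe sets that did not share 1 order of arrays. Probe set 1370822_at gave 127.2 and 96.8 at 8 h, 93.0 and 71.9 at 20 h, and 152.8, 137.4 and 71.9 in untreated testis. Probe set 1377334_at gave 3.6 and 51.8 at 8 h, 59.5 and 35.7 at 20 h, and 14.5, 42.0 and 182.8 in untreated testis, with 8 h replicate 1 lowest and untreated replicate 3 highest. Probe set 1381593_x_at gave 15.6 and 16.1 at 8 h, 18.8 and 63.5 at 20 h, and 101.2, 113.8 and 31.2 in untreated testis, and here both 8 h arrays lay below all untreated arrays, with a log2 fold change of -1.52 ± 0.52 at 8 h and -0.78 ± 0.52 at 20 h. Probe set 1392334_at gave 38.8 and 34.5 at 8 h, 38.1 and 40.9 at 20 h, and 117.2, 136.2 and 35.5 in untreated testis. Untreated replicates 1 and 2 stood above all other arrays in the last of these, and untreated replicate 3 lay among the cadmium arrays, so the groups overlapped at the log2 fold changes of -0.96 ± 0.44 at 8 h and -0.88 ± 0.44 at 20 h.

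The other class II genes differed less between arrays. Cd74, the invariant chain that escorts class II molecules, gave 435.0 and 353.4 at 8 h, 309.6 and 308.3 at 20 h, and 378.7, 481.3 and 424.1 in untreated testis. Both 20 h arrays lay below all untreated arrays, at a mean of 309.0 ± 0.919 (SD, n = 2) at 20 h and 428.0 ± 51.4 (SD, n = 3) in untreated testis, a log2 fold change of -0.45 ± 0.17. RT1-Da, the alpha chain of RT1-D, gave 261.8 and 171.1 at 8 h, 148.8 and 165.5 at 20 h, and 183.9, 236.7 and 255.2 in untreated testis. It also lay below all untreated arrays on both 20 h arrays, with a log2 fold change of -0.47 ± 0.23, and overlapped them at 8 h. RT1-DMa and RT1-DMb form the molecule that exchanges peptides on class II. RT1-DMa gave 73.1 and 92.2 at 8 h, 77.7 and 68.6 at 20 h, and 69.0, 80.8 and 36.9 in untreated testis, with untreated replicate 3 lowest. RT1-DMb gave 137.1 and 116.8 at 8 h, 82.6 and 105.6 at 20 h, and 101.1, 104.1 and 102.7 in untreated testis, with both 8 h arrays above the rest and a log2 fold change of 0.27 ± 0.21 at 8 h and -0.12 ± 0.21 at 20 h. Within day 3, which holds 1 untreated array, Cd74 differed by 0.04, -0.25 and -0.44 (log2) on 8 h replicates 1 and 2 and 20 h replicate 2, and on day 1 by -0.28 on 20 h replicate 1.

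Markers of leukocytes, among which are the cells that carry class II, are set beside these values. All 14 macrophage markers on the array passed the filter. Their summed signal was 6385.3 and 6412.2 at 8 h, 6320.1 and 6343.2 at 20 h, and 5986.3, 5520.0 and 5648.9 in untreated testis. Most of each sum was Aif1, at 3706.7 and 3961.6 at 8 h, 3761.7 and 3975.4 at 20 h, and 3766.3, 3274.9 and 3216.4 in untreated testis. By log2 fold change 11 of the 14 were higher and 3 lower at 8 h, and 9 higher and 5 lower at 20 h. Csf1r was lower on all cadmium arrays (70.8 to 110.0) than on untreated arrays (122.9 to 128.9). Cd163 went the other way, at 77.2 to 137.3 on cadmium arrays and 37.4 to 52.3 on untreated arrays. Its log2 fold change was 0.91 ± 0.29 at 8 h and 1.01 ± 0.29 at 20 h, and that of Csf1r was -0.50 ± 0.24 and -0.38 ± 0.24. The 6 pan-leukocyte markers, 5 of them tested, summed to 251.1 and 304.6 at 8 h, 258.6 and 257.7 at 20 h, and 335.0, 421.8 and 302.7 in untreated testis. Of these Ptprc, which defines leukocytes, lay between 3.4 and 24.3 on all arrays and did not pass the filter. None of 3 dendritic cell markers passed it, with sums of 5.9 to 26.9 on cadmium arrays and 13.5 to 55.8 on untreated arrays. The 12 T and NK lymphocyte markers, 6 of them tested, summed to 893.6 to 979.7 on cadmium arrays and 992.5 to 1305.6 on untreated arrays. The 3 B lymphocyte markers, 2 of them tested, summed to 86.1 to 101.9 and 87.7 to 134.3. For the 6 neutrophil markers, 1 of them tested, the sums were 47.9 to 140.6 and 103.5 to 164.9. The part of these cells in the class II signals was not tested.

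Class I heavy chains showed the same kind of split. RT1-CE5 is read by 4 tested probe sets. Probe set 1371209_at gave 2.5 and 388.6 at 8 h, 412.9 and 380.2 at 20 h, and 171.7, 166.9 and 387.7 in untreated testis. Probe set 1388255_x_at gave 1.3 and 279.1 at 8 h, 340.7 and 290.3 at 20 h, and 146.2, 152.3 and 331.5 in untreated testis. In both, 8 h replicate 1 lay near 0, untreated replicates 1 and 2 were intermediate and the other 4 arrays, untreated replicate 3 among them, were high and close together. Probe set 1371210_s_at gave 36.2 and 183.0 at 8 h, 168.3 and 136.6 at 20 h, and 118.3, 119.1 and 178.2 in untreated testis, in the same order with a smaller range. Probe set 1370972_x_at gave 72.9 and 182.1 at 8 h, 123.9 and 112.5 at 20 h, and 69.4, 61.6 and 148.4 in untreated testis, with 8 h replicate 1 beside untreated replicates 1 and 2 at the low end. The log2 fold changes at 8 h were -1.51 ± 1.00, -1.61 ± 0.93, -0.59 ± 0.47 and 0.37 ± 0.40 in this order of probe sets, and those at 20 h against 8 h were 2.29 ± 1.10, 2.25 ± 1.02, 0.73 ± 0.52 and 0.02 ± 0.44. Without 8 h replicate 1 the first 2 at 8 h were 0.76 and 0.48, so that this array set their sign.

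RT1-A, the symbol of the classical class I gene, gave 81.4 and 437.2 at 8 h, 394.9 and 407.4 at 20 h, and 223.9, 304.2 and 447.5 in untreated testis. Its order of arrays was that of RT1-CE5, with a log2 fold change of -0.65 ± 0.53 at 8 h and 0.34 ± 0.53 at 20 h. RT1-CE12 gave 164.3 and 1010.1 at 8 h, 1227.4 and 1073.9 at 20 h, and 771.8, 758.8 and 219.8 in untreated testis. This gene was low on 8 h replicate 1 and untreated replicate 3, as was the RT1-Bb probe set 1371065_at, and both 20 h arrays lay above all others, with a log2 fold change of 1.15 ± 0.69 against untreated testis and 1.44 ± 0.75 against 8 h. RT1-N2 gave 5.6 and 98.6 at 8 h, 40.2 and 84.6 at 20 h, and 42.3, 37.0 and 1.9 in untreated testis, again with 8 h replicate 1 and untreated replicate 3 at the bottom, and with log2 fold changes of 0.39 ± 0.75 at 8 h and 1.01 ± 0.75 at 20 h.

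Other class I genes split the arrays in other ways. RT1-T24-4 gave 115.2 and 414.6 at 8 h, 696.5 and 379.4 at 20 h, and 452.0, 556.1 and 301.3 in untreated testis, and 8 h replicate 1 was the lowest array, with a log2 fold change of 1.16 ± 0.51 at 20 h against 8 h. RT1-T24-3 gave 34.5 and 127.4 at 8 h, 44.6 and 113.7 at 20 h, and 109.4, 44.2 and 121.8 in untreated testis, and it set untreated replicate 2, 20 h replicate 1 and 8 h replicate 1 below the other 4 arrays. RT1-CE10 gave 157.4 and 74.8 at 8 h, 205.6 and 84.8 at 20 h, and 190.2, 170.9 and 53.8 in untreated testis. Its 3 lowest arrays, 8 h replicate 2, 20 h replicate 2 and untreated replicate 3, all belonged to day 3, and the fourth array of that day, 8 h replicate 1, was near the other days. RT1-CE16 gave 262.2 and 140.8 at 8 h, 109.7 and 155.1 at 20 h, and 142.0, 146.1 and 156.5 in untreated testis, with 8 h replicate 1 alone above the rest.

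RT1-S3 is read by 4 tested probe sets. Probe set 1388164_at gave 45.5 and 11.3 at 8 h, 38.8 and 69.7 at 20 h, and 63.2, 82.6 and 94.7 in untreated testis, with both 8 h arrays below all untreated arrays and a log2 fold change of -1.24 ± 0.40 at 8 h. Probe set 1371123_x_at gave 102.6 and 47.3 at 8 h, 41.7 and 49.8 at 20 h, and 73.0, 85.8 and 104.0 in untreated testis, with both 20 h arrays below all untreated arrays and a log2 fold change of -0.75 ± 0.32 at 20 h. The probe sets of the gene did not share these separations. Probe set 1388212_a_at gave 66.6 and 49.8 at 8 h, 24.5 and 75.5 at 20 h, and 63.7, 68.3 and 85.3 in untreated testis, and probe set 1388213_a_at gave 45.7 and 42.1 at 8 h, 20.3 and 51.6 at 20 h, and 66.9, 23.3 and 74.5 in untreated testis. For both the groups overlapped and 20 h replicate 1 was the lowest array, without which their log2 fold changes at 20 h were 0.06 and 0.02, where they were -0.54 ± 0.37 and -0.43 ± 0.44 with it.

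RT1-A3 gave 24.3 and 32.1 at 8 h, 63.4 and 50 at 20 h, and 57.9, 75.3 and 40.5 in untreated testis by its tested probe set, with both 8 h arrays below all untreated arrays and a log2 fold change of -0.73 ± 0.32 at 8 h. Probe set 1388256_at of the gene, below the filter and not tested, had signals of 7.9 to 33.0 and was highest on 8 h replicate 1. RT1-M3-1, whose mouse counterpart presents peptides with a formylated end, gave 43.2 and 57.9 at 8 h, 37.9 and 46.2 at 20 h, and 56.5, 45.0 and 38.7 in untreated testis, with overlapping groups and a narrow range.

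B2m, the light chain shared by class I molecules, did not follow the heavy chains. Probe set 1371440_at gave 498.4 and 474.7 at 8 h, 282.0 and 435.1 at 20 h, and 359.1, 319.1 and 407.3 in untreated testis. Probe set 1367595_s_at gave 3722.6 and 3565.3 at 8 h, 2263.3 and 3386.7 at 20 h, and 2259.3, 2902.1 and 3298.1 in untreated testis. Both 8 h arrays lay above all untreated arrays by both probe sets, at a mean of 486.5 ± 16.8 (SD, n = 2) at 8 h and 361.8 ± 44.2 (SD, n = 3) in untreated testis by the first, with log2 fold changes of 0.42 ± 0.20 and 0.39 ± 0.20. Against the untreated array of the same day the differences of the 2 arrays were smaller, 0.28 and 0.21 by the first probe set and 0.17 and 0.11 by the other. At 20 h the log2 fold changes were -0.04 ± 0.20 and -0.01 ± 0.20.

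The promoter of B2m is shown for the core of the interferon-stimulated response element, searched as GAAANNGAA on both strands, and lies at chr3:129549080-129549379 on the plus strand (RefSeq, GRCr8). Capitals mark that match, which begins 150 bases before the start, and a match to ATTGG at 64 bases before it.
B2m: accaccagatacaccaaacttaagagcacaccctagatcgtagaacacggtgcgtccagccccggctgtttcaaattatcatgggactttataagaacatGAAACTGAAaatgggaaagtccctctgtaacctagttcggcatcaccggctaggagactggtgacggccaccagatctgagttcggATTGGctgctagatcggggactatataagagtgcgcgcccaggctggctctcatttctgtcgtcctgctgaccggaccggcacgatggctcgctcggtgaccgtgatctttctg
The core was found in 16 of 49 member promoters (32.7%) and in 9.71% of all promoters. By role it was in 3 of 12 class I promoters, in all 3 of peptide loading, in 8 of 13 of effectors and in 0 of 6 of class II. Many members are known interferon targets, and the share is no result of the cadmium comparison.

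In RT1 signals, arrays of the same group and day could differ widely, and arrays of different groups and days could be alike. The part of treatment or day in this was not tested. The median absolute difference between the 8 h replicates, of the same group and day, was 1.18 (log2) over RT1 probe sets and 0.20 over all probe sets. Between 8 h replicate 2 and 20 h replicate 2, of the same day, it was 0.16 over both sets. Between 20 h replicate 1 and 20 h replicate 2, hybridized on different days, it was 0.29 over RT1 and 0.32 over all probe sets, and between 20 h replicate 1 and 8 h replicate 2, of different days and groups, 0.28 and 0.31. These 3 arrays were thus as alike in RT1 as in other genes. Untreated replicates 1 and 2 were also alike, at 0.17 over RT1 and 0.20 over all probe sets. Untreated replicate 3 differed from them by 0.95 and 1.07 over RT1, against 0.35 and 0.33 over all probe sets. 8 h replicate 1 differed from every other array by 0.81 to 1.18 over RT1 and by 0.20 to 0.31 over all probe sets. It was the lowest array for 11 of 28 RT1 probe sets (39.3%), where it was the lowest for 13.7% of all probe sets, and the highest for 6 (21.4%), where it was the highest for 9.74% of all.

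**Figure D4:**
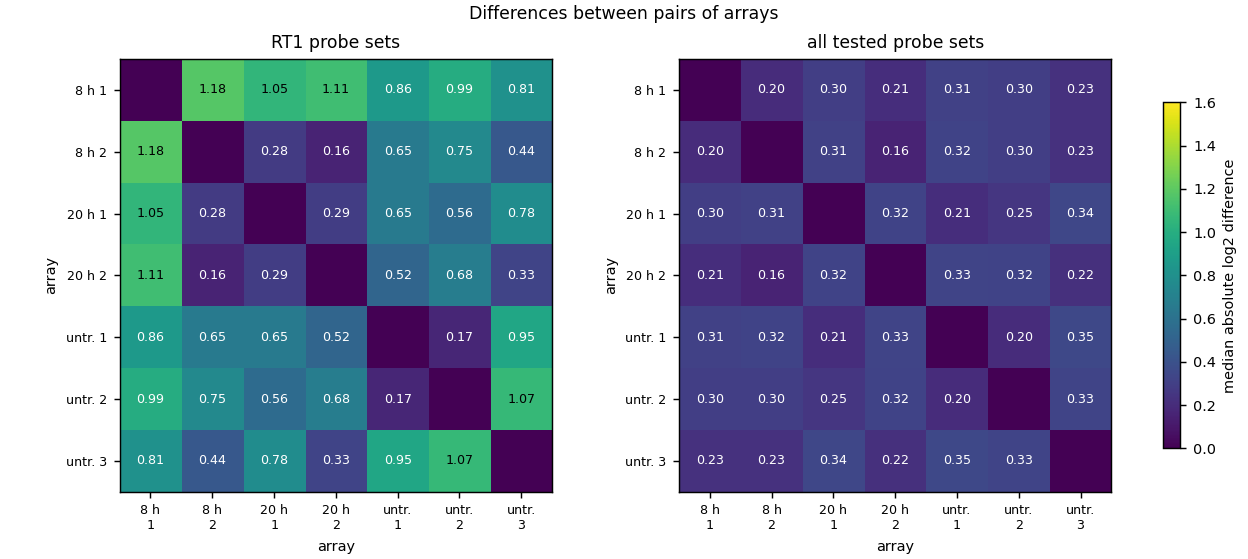
Median absolute difference in log2(signal + 15) between each pair of arrays, over the 28 RT1 probe sets (left) and over all 20857 tested probe sets (right), on 1 colour scale. In RT1, 8 h replicate 1 differs from every other array by 0.81 or more, while 8 h replicate 2 and both 20 h replicates differ from each other by 0.16 to 0.29.

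A further probe set, 1370428_x_at, is annotated to 2 RT1 class I genes and is no member, and it is given because of its size, after its values were seen. It gave 3.6 and 1775.1 at 8 h, 1523.1 and 1722.8 at 20 h, and 738.4, 796.4 and 868.8 in untreated testis. When 8 h replicate 2 was left out, it was called by limma at 8 h (log2 fold change -5.45, adjusted p = 9.3e-05), which then compares 1 array with 3 and assumes that this array varies like the others. With both 8 h arrays it was not called.

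Of the peptide loading genes, Tap1, a chain of the transporter that moves peptides into the endoplasmic reticulum, gave 41.0 and 43.3 at 8 h, 40.9 and 34.1 at 20 h, and 57.6, 44.9 and 75.9 in untreated testis. All 4 cadmium arrays lay below all untreated arrays, 8 h replicate 2 by little (43.3, with 44.9 on untreated replicate 2), with log2 fold changes of -0.36 ± 0.30 at 8 h and -0.49 ± 0.30 at 20 h. Probe set 1375379_at of Tap1, below the filter and not tested, had signals of 5.3 to 41.3, with overlapping groups and 8 h replicate 1 highest. Tapbp, which encodes tapasin and holds class I at that transporter, gave 133.6 and 118.1 at 8 h, 149.9 and 149.4 at 20 h, and 122.8, 179.8 and 122.8 in untreated testis. Its groups overlapped at both times. Tap2 did not pass the filter, with signals between 2.3 and 36.7.

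Stat3, the main transducer of the interleukin-6 family, had the highest log2 fold changes of the STAT factors at 8 h against untreated testis. Probe set 1370224_at gave 316.0 and 231.0 at 8 h, 384.1 and 123.1 at 20 h, and 163.0, 157.4 and 139.0 in untreated testis. Both 8 h arrays lay above all untreated arrays, at a mean of 273.5 ± 60.1 (SD, n = 2) at 8 h and 153.1 ± 12.6 (SD, n = 3) in untreated testis, and the 20 h pair held both the highest and the lowest of the 7 arrays. Probe set 1371781_at gave 191.8 and 132.2 at 8 h, 282.2 and 82.2 at 20 h, and 89.6, 136.6 and 112.8 in untreated testis. It showed the same high array at 20 h, while at 8 h replicate 2 lay within the untreated range. The log2 fold changes were 0.77 ± 0.37 and 0.46 ± 0.41 at 8 h and 0.48 ± 0.37 and 0.43 ± 0.41 at 20 h. Without 20 h replicate 1, those at 20 h were -0.28 and -0.38.

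**Figure D5:**
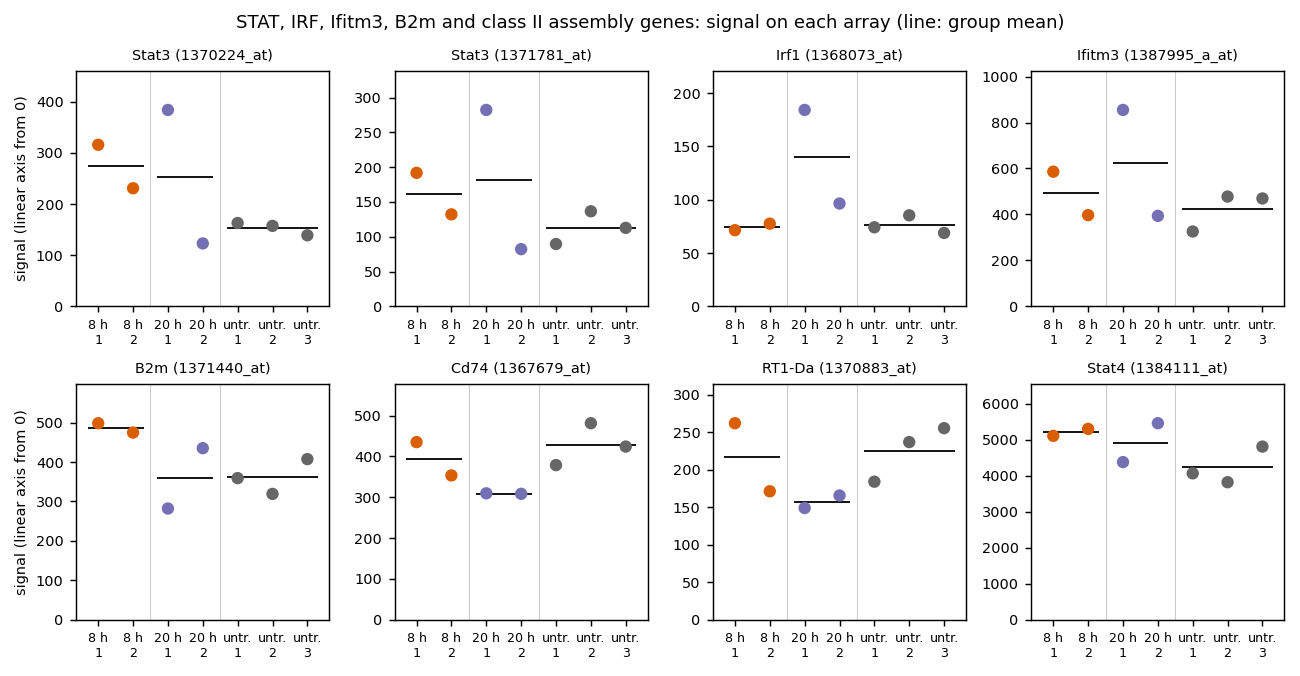
Signal (linear axis from 0) of Stat3, Irf1, Ifitm3, B2m, Cd74, RT1-Da and Stat4 on each of the 7 arrays, with the group mean as a line. Stat3 (1370224_at), Irf1 and Ifitm3 are highest on 20 h replicate 1, at 384.1, 184.3 and 854.8, with 20 h replicate 2 far below it.

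Stat4 transduces interleukin-12 in lymphocytes and, in the mouse, is also made by haploid germ cells. It gave 5102.5 and 5294.6 at 8 h, 4373.9 and 5452.6 at 20 h, and 4061.7, 3815.3 and 4804.2 in untreated testis. Both 8 h arrays lay above all untreated arrays (log2 fold change 0.30 ± 0.15). The spermatid marker sum moved alike, at 107844.5 and 105410.7 at 8 h, 76248.2 and 110741.6 at 20 h, and 79251.3, 70984.2 and 111231.4 in untreated testis, with the 4 highest on day 3 as for Stat4. Within day 3 Stat4 differed from the untreated array by 0.09 and 0.14 at 8 h and 0.18 at 20 h (log2). The part of germ cells or day in it was not tested.

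Stat2, a partner of Irf9 in type I interferon signalling, is read by 2 tested probe sets. Probe set 1373670_at gave 63.0 and 49.6 at 8 h, 23.0 and 43.7 at 20 h, and 109.1, 25.4 and 53.4 in untreated testis, with a log2 fold change of -0.57 ± 0.46 at 20 h against untreated testis and -0.59 ± 0.50 against 8 h, and probe set 1389571_at gave 66.1 and 56.7 at 8 h, 82.0 and 60.9 at 20 h, and 83.2, 65.3 and 77.9 in untreated testis. Neither separated the cadmium arrays from the untreated ones. Stat5a, which acts below prolactin and growth hormone, gave 178.2 and 94.6 at 8 h, 101.8 and 100.4 at 20 h, and 150.2, 135.2 and 125.1 in untreated testis, with both 20 h arrays below all untreated arrays. Stat6, which acts below interleukin-4, gave 31.3 and 37.9 at 8 h, 57.2 and 25.5 at 20 h, and 56.2, 48.0 and 48.7 in untreated testis, with both 8 h arrays below all untreated arrays. The median over the 7 tested STAT probe sets was 0.02 at 8 h and -0.07 at 20 h.

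Irf1 is the IRF that interferon-gamma induces through STAT factors. It gave 71.5 and 77.6 at 8 h, 184.3 and 96.5 at 20 h, and 74.2, 85.4 and 68.9 in untreated testis. Both 20 h arrays lay above all others, replicate 1 far more than replicate 2, with a log2 fold change of 0.71 ± 0.28 against untreated testis and 0.74 ± 0.31 against 8 h, and of -0.02 ± 0.28 at 8 h against untreated testis. Replicate 1 exceeded the untreated array of its day by 1.16 (log2), and replicate 2 that of its own day by 0.41. Its promoter is shown for the STAT palindrome, searched as TTCNNNGAA, and lies at chr10:38417685-38417984 on the plus strand (RefSeq, GRCr8). Capitals mark the palindrome, which begins 142 bases before the start, and a CCAAT.
Irf1: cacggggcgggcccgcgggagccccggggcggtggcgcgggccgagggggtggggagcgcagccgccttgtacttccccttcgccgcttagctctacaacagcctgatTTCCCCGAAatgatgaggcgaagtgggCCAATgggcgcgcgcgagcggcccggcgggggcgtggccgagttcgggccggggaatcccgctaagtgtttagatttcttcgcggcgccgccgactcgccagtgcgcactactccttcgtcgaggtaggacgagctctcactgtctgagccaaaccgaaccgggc
The palindrome was found in 9 of 49 member promoters (18.4%) and in 8.87% of all promoters, and 3 of the 6 IRF promoters held it.

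Irf8, a factor of myeloid cells, gave 13.6 and 53.0 at 8 h, 28.5 and 6.6 at 20 h, and 51.0, 44.0 and 61.8 in untreated testis. Both 20 h arrays lay below all untreated arrays, with a log2 fold change of -1.13 ± 0.47 that was -1.63 without 20 h replicate 1 and -0.62 without 20 h replicate 2. Irf7, the interferon-induced factor that amplifies type I interferon, gave 95.8 and 82.8 at 8 h, 103.4 and 96.9 at 20 h, and 112.9, 124.9 and 120.3 in untreated testis. All 4 cadmium arrays lay below all untreated arrays, by small amounts (-0.37 ± 0.21 at 8 h and -0.22 ± 0.21 at 20 h). Irf9, the DNA-binding part of the type I interferon complex, gave 103.9 and 63.1 at 8 h, 76.8 and 78.6 at 20 h, and 83.5, 97.9 and 103.6 in untreated testis by probe set 1374627_at. Probe set 1383448_at of Irf9 gave 104.2 and 109.0 at 8 h, 139.2 and 131.6 at 20 h, and 119.4, 156.1 and 136.9 in untreated testis. The first was below all untreated arrays at 20 h, the other at 8 h, and neither at both times.

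Irf3, the latent factor of viral sensing, gave 308.4 and 359.6 at 8 h, 498.4 and 343.4 at 20 h, and 477.1, 370.5 and 289.0 in untreated testis. Irf5, which acts below Toll-like receptors, gave 13.7 and 55.0 at 8 h, 37.9 and 33.8 at 20 h, and 33.3, 47.4 and 27.5 in untreated testis. Irf2, an antagonist of Irf1, gave 64.9 and 59.4 at 8 h, 57.7 and 23.4 at 20 h, and 71.6, 58.9 and 38.7 in untreated testis by its tested probe set, with a log2 fold change of -0.55 ± 0.39 at 20 h against 8 h. These 3 tested probe sets overlapped between cadmium and untreated arrays at both times. Of the Irf2 probe sets below the filter, 1382503_at had signals of 4.1 to 11.8, with both 20 h arrays below all untreated arrays. Over the 8 tested IRF probe sets 1 was higher and 7 were lower at 8 h (median -0.18), and 3 were higher and 5 lower at 20 h (median -0.12), where 39.0% and 41.2% of all probe sets were higher.

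The IRF2-binding proteins, co-repressors named for IRF2, varied with the arrays. Irf2bp2 gave 112.9 and 98.1 at 8 h, 258.2 and 95 at 20 h, and 159.8, 154.5 and 50.7 in untreated testis by probe set 1373566_at, the 1 tested member outside RT1 with a 4-fold range, and 75.6 and 52.1 at 8 h, 95.1 and 75.8 at 20 h, and 106.3, 91.7 and 46.8 in untreated testis by probe set 1380598_at. In both untreated replicate 3 was the lowest array. Irf2bp1 gave 136.6 and 105.9 at 8 h, 127.2 and 129.7 at 20 h, and 153.4, 207.8 and 126.1 in untreated testis. Irf2bpl gave 55.2 and 64.5 at 8 h, 75.5 and 71.4 at 20 h, and 98.6, 67.9 and 77.5 in untreated testis by probe set 1375200_at. By probe set 1398508_at it gave 226.3 and 200.4 at 8 h, 187.7 and 199.7 at 20 h, and 208.6, 156.2 and 193.5 in untreated testis. These tested probe sets of Irf2bpl differed in sign at 8 h, at -0.35 ± 0.25 and 0.19 ± 0.19.

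The interferon-induced effectors gave no common direction. Of 13 tested probe sets 5 were higher and 8 lower at 8 h (median log2 fold change -0.10), and 6 were higher and 7 lower at 20 h (median -0.05). Ifitm3, a membrane protein that hinders viral entry, gave 586.1 and 397.0 at 8 h, 854.8 and 393.9 at 20 h, and 325.9, 477.9 and 469.6 in untreated testis. 20 h replicate 1 and, by less, 8 h replicate 1 stood above the untreated arrays, and the other array of each pair lay within them, with a log2 fold change of 0.46 ± 0.32 at 20 h that was -0.08 without replicate 1. Its relatives were alike in part. Ifitm1 gave 180.2 and 172.4 at 8 h, 299.2 and 147.8 at 20 h, and 155.9, 133.2 and 210.5 in untreated testis, highest on the same array. Ifitm2 gave 445.8 and 339.8 at 8 h, 374.1 and 349.5 at 20 h, and 350.3, 399.7 and 517.2 in untreated testis, highest on untreated replicate 3.

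The Ifitm3 promoter is shown because both motifs lie side by side in it. It lies at chr1:205541709-205542008 on the minus strand (RefSeq, GRCr8), and capitals mark GAAANNGAA at 44 and TTCNNNGAA at 33 bases before the start.
Ifitm3: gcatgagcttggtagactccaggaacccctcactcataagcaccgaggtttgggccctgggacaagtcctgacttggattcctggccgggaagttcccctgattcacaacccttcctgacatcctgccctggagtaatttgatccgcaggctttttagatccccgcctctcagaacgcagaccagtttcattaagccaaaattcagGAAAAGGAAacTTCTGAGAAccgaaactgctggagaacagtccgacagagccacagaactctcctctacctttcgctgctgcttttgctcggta

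Oasl, of the family of oligoadenylate synthetases that sense double-stranded RNA, gave 46.5 and 76.7 at 8 h, 112.5 and 90.7 at 20 h, and 102.1, 135.1 and 92.1 in untreated testis. Both 8 h arrays lay below all untreated arrays, with a log2 fold change of -0.72 ± 0.27, and the 20 h arrays did not (-0.09 ± 0.27). Oas1a gave 52.9 and 40.8 at 8 h, 36.5 and 42.4 at 20 h, and 34.9, 54.4 and 62.4 in untreated testis, with overlapping groups. Mx1 and Mx2, dynamin-like antiviral GTPases, also overlapped by their tested probe sets. Mx1 gave 37.6 and 47.1 at 8 h, 44.8 and 59.8 at 20 h, and 45.2, 49.7 and 46.0 in untreated testis, and Mx2 gave 44.8 and 35.5 at 8 h, 20.8 and 50.2 at 20 h, and 39.5, 28.7 and 37.5 in untreated testis. Probe set 1369202_at of Mx2, below the filter and not tested, had 14.8 to 17.5 on cadmium arrays and 19.4 to 46.3 on untreated arrays. All 4 cadmium arrays lay below all untreated arrays in it, so the probe sets of Mx2 differed.

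The Ifit genes encode proteins that bind viral RNA. Ifit1 gave 35.0 and 51.0 at 8 h, 31.8 and 49.0 at 20 h, and 77.1, 92.2 and 26.7 in untreated testis. Ifit2 gave 9.1 and 44.6 at 8 h, 48.6 and 41.4 at 20 h, and 23.2, 37.1 and 27.9 in untreated testis by its tested probe set, with both 20 h arrays above all untreated arrays and 8 h replicate 1 the lowest of all. Ifit3 gave 37.5 and 40.1 at 8 h, 35.8 and 31.4 at 20 h, and 27.5, 29.2 and 31.9 in untreated testis, with both 8 h arrays above all untreated arrays by a small amount (0.27 ± 0.32). Probe set 1384180_at of Ifit2, below the filter and not tested, gave 30.9 and 29.3 at 8 h, 36.3 and 22.6 at 20 h, and 10.2, 21.5 and 18.2 in untreated testis, with all 4 cadmium arrays above all untreated arrays. The groups overlapped for Ifit1 at both times.

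The Gbp genes encode guanylate-binding proteins induced by interferon-gamma. Gbp2 gave 89.4 and 89.4 at 8 h, 124.9 and 81.6 at 20 h, and 128.3, 90.2 and 103.7 in untreated testis. Gbp4 gave 41.8 and 96.7 at 8 h, 68.4 and 55.2 at 20 h, and 65.7, 49.4 and 67.5 in untreated testis. Gbp7 gave 35.6 and 30.9 at 8 h, 29.0 and 40.4 at 20 h, and 37.5, 60.1 and 48.5 in untreated testis. Both 8 h arrays were below all untreated arrays for Gbp2, by less than 1 signal unit, and for Gbp7, and the groups overlapped for all 3 at 20 h.

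The genes around these members, on lists that hold no member, gave no call either. In each list 0 genes were called, against 0% of all probe sets. Of 21 tested further interferon-induced genes 6 were higher and 15 lower at 8 h (median -0.09), and 4 were higher and 17 lower at 20 h (median -0.21, against -0.05 over all probe sets). With the largest differences at 20 h, Nmi, an interactor of STAT factors, had -0.56 ± 0.38, Ifi44l had -0.52 ± 0.45, and Igtp, a GTPase, and Ifi27 had 0.50 ± 0.26 and -0.50 ± 0.21 (log2 ± SE). Ifi27 alone of this list had an unadjusted p under 0.05 at 20 h in limma. Of 19 tested genes of the immunoproteasome and antigen processing 7 were higher and 12 lower at 8 h (median -0.01), and 11 were higher and 8 lower at 20 h (median 0.00). Ctss, the protease that trims the invariant chain, had 0.48 ± 0.22 at 8 h. Of 7 tested receptors 1 was higher at 8 h and 4 at 20 h, of 4 Janus kinases 1 and 3, of 14 STAT inhibitors 7 and 4, and of 5 nucleic acid sensing genes 3 and 3.

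20 h replicate 1, the array on which Stat3, Irf1 and Ifitm3 were highest, was the highest array for 14.9% of all probe sets and the lowest for 15.7%. Of the genes tested on each list it was the highest for 4 of 7 receptors, 2 of 4 Janus kinases, 4 of 14 STAT inhibitors and 0 of 2 cytokines. It was the lowest for 0, 0, 5 and 0 of them in that order. Of 21 further interferon-induced genes it was the highest for 3 and the lowest for 6. For 19 genes of the immunoproteasome and antigen processing these counts were 4 and 6, and for 5 nucleic acid sensing genes 2 and 1. Among the inhibitors Socs2 and Socs7 were lowest there, at 100.7 and 548.4. The next 4 genes of the interleukin-6 route were picked after their values were seen. Il6, the ligand, gave 4.2 and 3.9 at 8 h, 118.2 and 8.9 at 20 h, and 3.9, 21.6 and 4.9 in untreated testis and did not pass the filter. Il6st, the receptor chain shared by that cytokine family, gave 254.8 and 282.9 at 8 h, 449.0 and 312.7 at 20 h, and 268.6, 315.1 and 269.7 in untreated testis. Socs3, the inhibitor that STAT3 induces, gave 7.5 and 24.7 at 8 h, 148.2 and 30.3 at 20 h, and 48.1, 30.4 and 57.4 in untreated testis, and Jak2 gave 74.5 and 72.3 at 8 h, 154.4 and 43.1 at 20 h, and 88.3, 64.6 and 83.0 in untreated testis. In these 4, 20 h replicate 1 was the highest array and 20 h replicate 2 lay within the untreated range or below it. Ifng and Ifnb1, the genes of interferon-gamma and interferon-beta, did not pass the filter, with signals of 6.7 to 36.8 for Ifng and 2.6 to 4.6 for Ifnb1 over the 7 arrays.

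Marker sums of other cells are set beside these values. The summed signal of 6 Leydig cell markers was 10983.9 and 7089.5 at 8 h, 2468.8 and 7260.5 at 20 h, and 5871.1, 6790.6 and 8145.2 in untreated testis, so this array was the lowest. The 9 endothelial markers, 8 of them tested, summed to 394.2 and 646.8 at 8 h, 421.4 and 716.1 at 20 h, and 803.4, 872.5 and 789.3 in untreated testis, with all cadmium arrays below the untreated ones and 8 h replicate 1 the lowest. The Sertoli cell, spermatid and spermatocyte sums of 20 h replicate 1 (11249.9, 76248.2 and 19537.8) lay within the untreated ranges. The part of these cells in the Stat3, Irf1 and Ifitm3 signals was not tested.

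The 13 members below the filter belonged to 12 genes, and 8 of them read a gene that also had a tested probe set. They were not tested, and their signals of 1.1 to 79.7 are read as low and not as absent. The highest of them, 79.7, was probe set 1389942_at of Irf2bpl on 8 h replicate 2. It had 27.8 on 8 h replicate 1 and 7.9 to 9.0 on the other arrays, so both 8 h arrays lay above all others. Stat5b had 11.4 to 48.6, RT1-N3 1.7 to 32.4, Oas1b 1.1 to 23.9 and Ifitm10 1.9 to 28.4 over the 7 arrays.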

How the data were processed

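Signals of 7 Rat230_2 arrays were used. The deposited intensity values are linear probe set signals that the authors computed with MAS 5.0, as the submitters' design text says, naming GeneSpring 7.2 as well; a trimmed mean without the lowest and highest 2% is the same on every array. Files of the other kind hold the authors' deposited instrument settings, read for array type, hybridization day and staining. No genome build for the probes is given in the sources used here. Symbols came from the platform annotation, and names, chromosomes and promoters from RefSeq (GRCr8).

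Groups were taken from the sample titles. Log2(signal + 15) was fitted over all 7 arrays with limma 3.58.1 (R 4.3.3; lmFit, eBayes with an intensity trend), over the 20857 of 31042 probe sets, controls left out, above the 40th percentile of their array on at least 2 arrays, with Benjamini-Hochberg adjustment and a threshold of 0.05. Tables were made with Python 3.11.15. The fit was tested on simulated data. Fold changes on this scale understate changes of low signals. With 2 or 3 arrays a group, their number limits the precision, and p-values measure the spread between these samples.

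Named with values were a fixed list that covers most members (the MHC genes, their assembly and loading genes, IRFs, STATs and effectors), the 5 highest and the 5 lowest log2 fold changes of tested members in each comparison, and the 10 widest ranges among untreated arrays; probe sets of 1 gene were kept apart. Members and lists were chosen with earlier results of these data known. The counts of wide ranges were added after seeing the data. Alternatives were other pseudocounts, filters and scalings, no intensity trend, day or replicate number as a block, and leaving out each array.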

Additional observations from a re-analysis of the deposited data

How the results depend on the processing

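Under 16 alternatives 0 members were called in any comparison or in the F test. Over all probe sets the count of 0 also held, except when 1 array was left out. It then ranged from 0 to 1 at 8 h, 0 to 8 at 20 h, 0 to 1 for 20 h against 8 h, and 0 to 1 in the F test. Same-numbered arrays shared little, since their deviations correlated at -0.02 (8 h with untreated), 0.08 (20 h with untreated) and 0.17 (20 h with 8 h) over 11544 genes, and the numbers were not taken to pair arrays. With the replicate number as a block, 0 members were called, and the number with an unadjusted p under 0.05 was 12 of 66 at 8 h, 8 at 20 h and 10 for 20 h against 8 h, where the fit without it had 4, 4 and 2. Over all probe sets these were 3759, 1919 and 830 with the block, where the fit without it had 1088, 648 and 401. Replicate number 3 exists only in the untreated group, so the block takes untreated replicate 3 out of the comparisons. Its fold changes are therefore those found when that array is left out. Leaving that array out gave 3342, 1650 and 588 over all probe sets and 10, 8 and 5 members. The higher counts with the block thus do not show that same-numbered arrays are paired. The median log2 fold change of members moved by more than its spread over untreated arrays. At 8 h it was -0.11 with a pseudocount of 50, with a filter at the 60th percentile and with day as a block, 0.01 after quantile normalization, -0.05 with one 75th percentile, -0.22 with the replicate block, and -0.22 to -0.09 with 1 array left out, while the median over all probe sets, -0.08, became 0.01 after quantile normalization and 0.02 with one 75th percentile. At 20 h it was -0.01 with the 60th percentile filter, 0.04 after quantile normalization, -0.02 with one 75th percentile, -0.11 with day as a block, and -0.14 to 0.02 with 1 array left out. For 20 h against 8 h it was -0.04 with no filter, 0.01 after quantile normalization, and -0.02 to 0.07 with 1 array left out. RT1 probe sets with a log2 range of 2 or more numbered 8 of 16 without a suffix (3.71% of all such probe sets), 9 with a pseudocount of 50 (0.465% of all), 14 with a pseudocount of 1 (12.5%), and 9 to 13 with 1 array left out (2.86% to 3.26%), choices added after seeing the data. Of 1081 alternative values of 69 named fold changes 53 had the other sign, and 25 of the 69 changed sign at least once. Leaving out 8 h replicate 1 turned the sign of RT1-CE5 (range over single arrays left out -3.69 to 0.48 by 1388255_x_at, -3.77 to 0.76 by 1371209_at and -1.56 to 0.39 by 1371210_s_at), RT1-A (-1.77 to 0.46) and RT1-Bb 1371065_at (-4.48 to 1.82) at 8 h, and of RT1-Db1 (-3.81 to 0.11 by 1370382_at and -1.74 to 0.18 by 1370383_s_at), RT1-CE5 1371210_s_at (-0.25 to 1.70) and RT1-Bb 1371065_at (-0.16 to 6.14) for 20 h against 8 h. Leaving out 8 h replicate 2 turned Cd74 at 8 h (-0.26 to 0.03). Leaving out 20 h replicate 1 turned Stat3 (-0.28 to 1.25 by 1370224_at and -0.38 to 1.23 by 1371781_at), Ifitm3 (-0.08 to 1.00), RT1-DMb (-0.27 to 0.04) and RT1-S3 (-1.14 to 0.06 by 1388212_a_at and -0.89 to 0.02 by 1388213_a_at) at 20 h. RT1-N2 at 8 h was -0.17 with the replicate block, and -0.17 to 1.62 with 1 array left out, lowest without untreated replicate 3. RT1-Bb 1371033_at at 8 h was -1.28 with the replicate block, and -2.17 to 2.92 with 1 array left out, lowest without 8 h replicate 1 and also negative without untreated replicate 3. RT1-CE5 1370972_x_at at 8 h was -0.04 with day as a block and -0.21 to 0.95 with 1 array left out, and for 20 h against 8 h it was -0.01 with a pseudocount of 50, -0.04 after quantile normalization, -0.03 with one 75th percentile and -0.57 to 0.60 with 1 array left out. Values near 0 also changed sign. B2m at 20 h was 0.02 and 0.05 with one 75th percentile (by 1371440_at and 1367595_s_at), 0.05 and 0.11 with the replicate block, 0.02 with day as a block by 1367595_s_at, and -0.34 to 0.26 and -0.30 to 0.28 with 1 array left out. Irf1 at 8 h was 0.17 after quantile normalization, 0.07 with one 75th percentile, 0.28 with day as a block, and -0.08 to 0.05 with 1 array left out. Oasl at 20 h was 0.02 after quantile normalization, 0.05 with day as a block, and -0.22 to 0.05 with 1 array left out. RT1-Ba 1370822_at at 8 h was 0.10 after quantile normalization, 0.05 with one 75th percentile, 0.38 with day as a block, and -0.34 to 0.13 with 1 array left out. The cause was not tested. Low signals limit what the 13 members below the filter can show.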

Other observations

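5 further probe sets are annotated to several RT1 genes and so were no members. Probe set 1371078_at, annotated to 5 genes, gave 70.1 and 155.5 at 8 h, 115.8 and 148.6 at 20 h, and 91.9, 70.2 and 190.9 in untreated testis. Probe set 1380436_at, annotated to 2 genes, gave 148.1 and 56.2 at 8 h, 42.2 and 14.6 at 20 h, and 74.2, 65.6 and 26.1 in untreated testis. Both thus set untreated replicate 3 apart from untreated replicates 1 and 2 and the 8 h replicates from each other, in opposite directions. In the second, 8 h replicate 1 was the highest array and untreated replicates 1 and 2 came next, the order seen for RT1-Db1. Probe set 1371267_at, annotated to 3 genes, gave 63.7 and 64.8 at 8 h, 92.9 and 58.0 at 20 h, and 99.6, 125.6 and 79.2 in untreated testis, with both 8 h arrays below all untreated arrays. The remaining 2 had signals of 1.1 to 40.4. These values were not tested.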
